A study of Homo sapiens with 10 samples.

Results

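The kinesins, the family of motor proteins that step along microtubules, were examined in RNA sequencing of 2 control and 2 oeDAZL libraries from H9, a human embryonic stem cell line. Members were chosen by gene symbol, as KIF followed by digits and an optional letter from A to C, or as KIFC1, KIFC2 or KIFC3. This gave 48 of the 64940 genes kept from the deposited table, which carry 42 symbols. The 6 further entries are second identifiers of KIFC1, KIF5C, KIF15 and KIF26B, and were listed at 0 in every library. By the sample labels, control cells are wild type and arose by spontaneous differentiation, and oeDAZL cells are hPGCLCs (human primordial germ cell-like cells) that overexpress DAZL, an RNA-binding protein of germ cells. The deposited design text calls the control cells PGCLCs too. As it is open which of these holds, an effect of DAZL cannot be told apart from one of the culture. The study's methods induce PGCLCs with BMP4 and BMP8a, each at 50 ng/ml, deliver DAZL by lentivirus and collect cells on day 6. For the miRNA libraries they describe a control GFP lentivirus and cell sorting. Whether the control RNA libraries had either is not stated there. Nothing states that libraries of a group came from separate cultures, so p-values measure only the spread between these libraries, which may be technical.

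DAZL was listed at 0 and 0.0333 TPM in control and at 102 and 101 TPM in oeDAZL, where TPM is transcript abundance scaled for length and library size. Of 12 germ cell and pluripotency markers, DAZL included, 9 had a mean of at least 1 TPM. Of these 9, 2 were higher (22.2%, DAZL among them) and 0 lower on the unadjusted P, beside 5.02% and 15.2% of all genes. The log2 fold change was above 0 for these 2 and below 0 for 7. For 4 (44.4%) both oeDAZL values lay below both control values, against 38.4% of all genes. POU5F1, the pluripotency factor, had 13.6 and 10.6 TPM in control and 22.4 and 20.4 TPM in oeDAZL and was higher on the unadjusted P (adjusted p = 0.0896 in limma), and TFAP2C, a regulator of germ cell fate, had 53.9 and 49.1 TPM in control and 44.3 and 50.4 TPM in oeDAZL, with overlap. NANOS3, an RNA-binding protein of specified germ cells, had 1.39 and 1.66 TPM in control and 1.07 and 0.732 TPM in oeDAZL. It showed no overlap and did not pass the unadjusted P. DDX4, a later germ cell marker, was listed at 0 throughout. TPM keeps no read depth, so the counting error behind a value is unknown.

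Kinesins share a motor domain that hydrolyses ATP and differ in the tails that bind cargo or spindle parts. Mitotic kinesins build and focus the spindle and help to divide the cell, and their genes are known to be held down until late in the cell cycle by complexes that bind the CHR element of their promoters. Transport kinesins carry vesicles, organelles and RNA particles along microtubules, and a last set serves cilia, Hedgehog signalling and the control of microtubule growth. By these roles 14 symbols were placed among the mitotic kinesins, 15 among the transport kinesins and 13 in the last set.

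Promoters are shown because the CHR letters divide the family along these roles. RefSeq windows of 300 bases (GRCh38.p14, 250 before and 50 after a transcription start) were found for 34 of the 42 symbols, with 43 windows in all. KIF5A, KIF13B, KIF19, KIF21B, KIF26B, KIF27, KIFC2 and KIFC3 were without a window. Both strands were searched for the CHR letters TTTGAA or TTCGAA and for CCAAT, the CCAAT box, and no match of one overlapped a match of the other in a kinesin window. Capitals mark these letters or their complements, such as TTCAAA and ATTGG. KIF11, KIF23 and KIF4A stand for the mitotic kinesins, KIF5B for the most abundant transport kinesin and KIF5C for the member with the smallest p between the groups.
KIF11, chr10:92592880-92593179, forward strand: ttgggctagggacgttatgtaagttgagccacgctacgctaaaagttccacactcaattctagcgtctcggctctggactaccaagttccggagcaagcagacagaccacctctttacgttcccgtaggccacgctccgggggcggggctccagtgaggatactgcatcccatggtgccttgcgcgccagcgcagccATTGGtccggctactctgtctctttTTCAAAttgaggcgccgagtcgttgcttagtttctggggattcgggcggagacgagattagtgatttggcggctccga
KIF23, chr15:69414099-69414398, forward strand: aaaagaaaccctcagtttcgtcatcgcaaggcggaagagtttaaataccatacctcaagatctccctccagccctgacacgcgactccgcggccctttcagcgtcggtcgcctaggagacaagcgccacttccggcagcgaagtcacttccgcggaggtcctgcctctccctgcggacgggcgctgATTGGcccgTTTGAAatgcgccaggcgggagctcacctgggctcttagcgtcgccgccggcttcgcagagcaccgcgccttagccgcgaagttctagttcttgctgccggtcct
KIF4A, chrX:70289854-70290153, forward strand: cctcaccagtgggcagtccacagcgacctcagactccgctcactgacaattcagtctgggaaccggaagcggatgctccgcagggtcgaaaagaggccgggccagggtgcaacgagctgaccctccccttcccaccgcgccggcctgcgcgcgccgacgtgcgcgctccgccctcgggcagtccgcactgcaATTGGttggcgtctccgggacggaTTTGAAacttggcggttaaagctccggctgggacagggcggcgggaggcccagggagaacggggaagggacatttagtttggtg
KIF5B, chr10:32056376-32056675, reverse strand: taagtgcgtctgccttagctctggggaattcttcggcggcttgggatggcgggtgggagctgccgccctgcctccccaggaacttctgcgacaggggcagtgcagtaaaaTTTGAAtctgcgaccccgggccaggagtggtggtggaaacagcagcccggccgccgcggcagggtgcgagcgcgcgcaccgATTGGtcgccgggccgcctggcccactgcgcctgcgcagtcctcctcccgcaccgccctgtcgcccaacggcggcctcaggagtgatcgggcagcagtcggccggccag
KIF5C, chr2:148874977-148875276, forward strand: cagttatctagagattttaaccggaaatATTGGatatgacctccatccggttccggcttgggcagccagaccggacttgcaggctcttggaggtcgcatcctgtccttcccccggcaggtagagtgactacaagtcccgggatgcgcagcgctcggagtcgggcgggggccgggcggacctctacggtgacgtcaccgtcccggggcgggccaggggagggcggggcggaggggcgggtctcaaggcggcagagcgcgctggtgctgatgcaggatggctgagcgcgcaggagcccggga

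CHR letters were present in 11 of 14 mitotic symbols, 1 of 11 transport symbols and 1 of 9 symbols of the last set. KIF2B, KIF2C and KIF20A were the mitotic symbols without them. By window, 80% of 15 mitotic and 6.25% of 16 transport windows held them, beside 16.4% of all 35116 windows. The first letter stood at position −28 from the start in KIF11, −55 in KIF23 and −34 in KIF4A. In KIF5B, the transport exception, it stood at −140. A CCAAT box was found in 73.3% of mitotic and 34.6% of all windows, and both motifs together in 66.7% of mitotic and 6.38% of all windows. The printed window of KIF5C held a CCAAT box and no CHR letters, and a further KIF5C window, not printed, held neither motif. These matches describe the letters and are not binding sites.

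Of the 48 entries, 37 had a mean of at least 1 TPM and entered the comparison, namely 12 mitotic kinesins, 15 transport kinesins and 10 of the last set. The other 11 were the 6 second identifiers, KIF2B, KIF4B, KIF6, KIF19 and KIF25. KIF2B, a spindle depolymerase, was listed at 0 in every library. KIF4B, an intronless relative of KIF4A, lay between 0.0144 and 0.214 TPM, and the division of reads between this pair is uncertain. KIF6, KIF19 and KIF25 reached at most 0.890, 0.490 and 0.0979 TPM.

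Levels were compared between genes in TPM, which is per length. KIF22, a chromokinesin that pushes chromosome arms toward the metaphase plate, had the highest level of the family, with 119 and 113 TPM in control and 114 and 113 TPM in oeDAZL. KIF5B, the ubiquitous heavy chain of conventional kinesin, had 102 and 111 TPM in control and 111 and 109 TPM in oeDAZL. Every library of KIF22 lay above every library of KIF5B, and the groups overlapped for both genes. KIF1C, KIF23 and KIF2A followed with means of 70.3, 68.7 and 66.03 TPM, and their ranges over the libraries overlapped. KIF21B, KIF17, KIF12 and KIF5A were lowest among the tested members, with means from 1.66 to 1.93 TPM.

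Mitotic kinesins summed to 499.7 and 502 TPM in control and 493 and 494 TPM in oeDAZL. Transport kinesins summed to 469 and 483 TPM in control and 473 and 464 TPM in oeDAZL. The ratio of the mitotic to the transport sum was 1.07 and 1.04 in control and 1.04 and 1.06 in oeDAZL, so the groups overlapped in this balance.

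**Figure D1:**
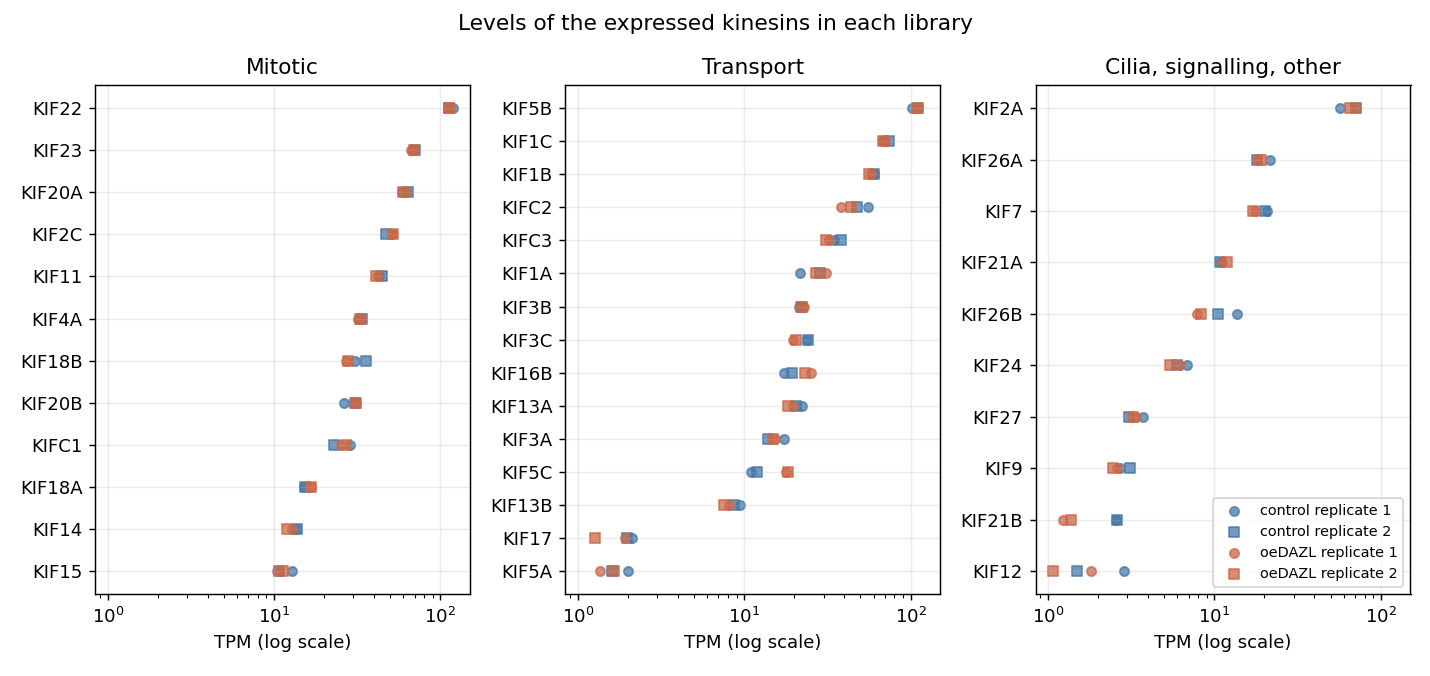
Level of each of the 37 tested kinesins in TPM on a log axis, by role, with 1 mark per library of the control and oeDAZL groups. The marks of most genes lie close together. The oeDAZL marks of KIF5C (17.9 and 18.4 TPM) and of KIF21B (1.22 and 1.37 TPM) stand apart from their control marks.

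The comparison asks how cells that overexpress DAZL differ from control cells in these motors. All 16687 genes with a mean of at least 1 TPM were fitted with limma on log2(TPM + 1), a scale on which changes of low genes are understated. At a 2-fold change with an unadjusted P of at most 0.05, the study's thresholds, 0 kinesins were called higher and 0 lower, where 0.126% and 0.563% of all tested genes were called. After Benjamini-Hochberg adjustment over all genes, 0 kinesins fell under 0.05 in limma, beside 0.0599% of all genes. The lowest adjusted p was 0.0896, and without control replicate 2 it was 0.0467, with 1 kinesin under 0.05. On the unadjusted P alone, 2 kinesins were higher and 6 were lower in oeDAZL, or 5.41% and 16.2% of 37, near the 5.02% and 15.2% of all genes. For 5 kinesins (13.5%) both oeDAZL values exceeded both control values and for 14 (37.8%) both were lower, against 16.0% and 38.4% of all genes. Kinesins thus differed between the groups about as often as the tested genes at large.

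Single libraries and scaling moved these counts. The kinesins past the unadjusted P changed with the library left out, and the share of all tested genes past it changed too. KIF1A, KIF2A and KIF20B became higher without control replicate 2, and KIFC3 became lower without control replicate 1. Median-of-ratios scaling gave 2 higher and 2 lower, where 9.95% and 9.16% of all genes were, and quantile normalization gave 3 higher and 2 lower, where 8.40% and 9.07% were.

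Of the 12 mitotic kinesins tested, 11 had a log2 fold change within 0.15 of 0, beside 8248 of the 16687 tested genes. Other lists described below were similar, with 13 of 14 G2/M markers, 10 of 14 S-phase markers and 15 of 17 dynein and dynactin subunits. Fewer were that close among the partners (12 of 20) and the tubulins (4 of 12). Where 5.02% and 15.2% of all genes passed the unadjusted P, 0 mitotic kinesins were higher and 1 was lower (8.33%). Their median log2 fold change was −0.02, beside −0.08 for all tested genes, and turned to 0.062 with median-of-ratios scaling and 0.015 with quantile normalization. Their range over the 4 libraries had a median of 0.14 on the log2 scale, beside 0.28 for transport kinesins and 0.25 for the 8627 tested genes with a mean of 10 to 120 TPM. This is a description of the libraries, since members were placed in roles with earlier results known.

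KIF11 (chromosome 10, hg38, 92574105 to 92655395), the motor that slides antiparallel microtubules and parts the spindle poles, had 42.7 and 44.6 TPM in control and 42.02 and 41.2 TPM in oeDAZL. Its oeDAZL values lay just under the control values, with a log2 fold change of −0.07 (95% interval −0.23 to 0.10, adjusted p = 0.623 in limma). KIFC1, a minus-end motor that opposes KIF11, had 28.7 and 22.8 TPM in control and 25.4 and 27.1 TPM in oeDAZL, with the oeDAZL values between the control values. KIF15, which can take the place of KIF11 at the spindle, had 12.8 and 10.8 TPM in control and 10.4 and 11.3 TPM in oeDAZL, again with overlap.

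Motors of the central spindle and of cytokinesis showed no difference past the test. KIF23 (chromosome 15, hg38, 69414246 to 69448427), the motor subunit of centralspindlin, had 68.4 and 70.1 TPM in control and 66.7 and 69.5 TPM in oeDAZL. The groups overlapped, with a log2 fold change of −0.02 (95% interval −0.17 to 0.13). RACGAP1 is the other subunit, and the ratio of KIF23 to RACGAP1 was 1.26 and 1.23 in control and 1.153 and 1.28 in oeDAZL. KIF20A, which carries the chromosomal passenger complex to the midzone, had a log2 fold change of −0.02 (95% interval −0.19 to 0.15). KIF4A, which limits the length of midzone microtubules together with PRC1, had 31.9 and 33.7 TPM in control and 33.5 and 32.7 TPM in oeDAZL, and the ratio of KIF4A to PRC1 was 0.770 and 0.819 in control and 0.821 and 0.753 in oeDAZL. KIF20B and KIF14, which act in late cytokinesis, had log2 fold changes of 0.13 and −0.12.

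Among motors that act on microtubule ends and chromosomes, KIF18B, which shortens astral microtubules, had 30.7 and 35.9 TPM in control and 26.9 and 27.9 TPM in oeDAZL. The groups did not overlap, and the log2 fold change was −0.27 (standard error 0.10, adjusted p = 0.210 in limma). MIR6783 lies within KIF18B on the same strand at 2.34 to 3.95 TPM, so reads may be shared. It kept its sign but no longer passed the unadjusted P without control replicate 2 (−0.16), without oeDAZL replicate 1 (−0.24) or 2 (−0.29), and with median-of-ratios scaling (−0.19) or quantile normalization (−0.20). KIF18A, a relative that damps chromosome oscillations, lay the other way, with 15.1 and 15.4 TPM in control and 16.8 TPM in both oeDAZL libraries and a log2 fold change of 0.13 that passed the unadjusted P with quantile normalization and not as deposited. KIF2C, a depolymerase that corrects faulty kinetochore attachments, and KIF22 had log2 fold changes of 0.07 and −0.03.

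Cell cycle genes were measured beside the mitotic kinesins. Of 14 G2/M markers, 1 was higher (7.14%) and 0 were lower on the unadjusted P, beside 5.02% and 15.2% of all genes. The 14 had a median log2 fold change of 0.05 and sums of 1389 and 1452 TPM in control and 1486 and 1457 TPM in oeDAZL. TOP2A, which disentangles chromosomes, was the higher gene, with 179.9 and 178 TPM in control and 198 and 196 TPM in oeDAZL. Of 14 S-phase markers, 1 was higher (7.14%) and 2 were lower (14.3%). PCNA, the replication clamp and the most abundant of them, had a log2 fold change of 0.09. TPX2, which recruits KIF15 to the spindle, had 117 and 119.7 TPM in control and 118 and 116 TPM in oeDAZL, and CENPE, a kinetochore motor whose symbol falls outside the naming rule, had 15.5 and 18.1 TPM in control and 18.7 TPM in both oeDAZL libraries, adjusted p = 0.465 in limma.

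**Figure D2:**
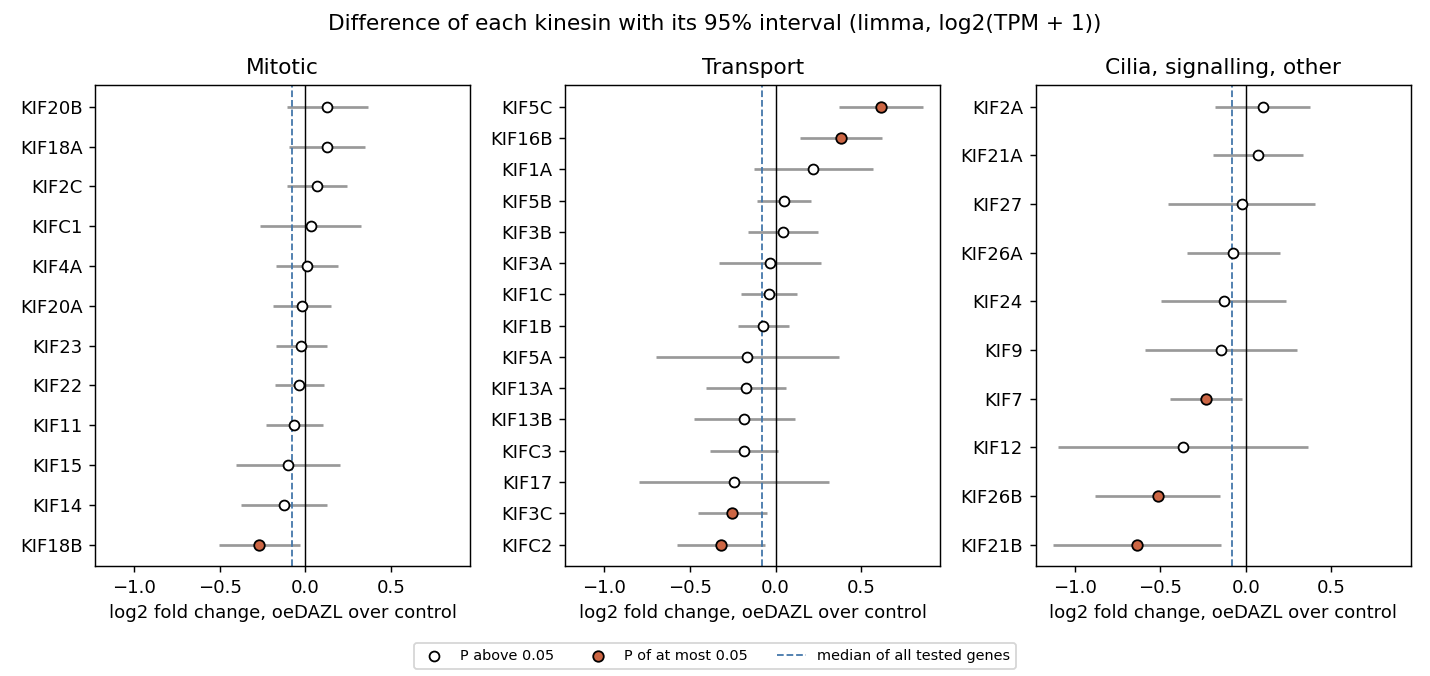
Log2 fold change of oeDAZL over control for each tested kinesin, by role, with its 95% interval from limma. Mitotic kinesins run from −0.27 to 0.13 and transport kinesins from −0.32 to 0.62, and the median of all tested genes is −0.08.

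Beside 5.02% and 15.2% of all genes, 2 of the 15 transport kinesins were higher (13.3%) and 2 were lower (13.3%) on the unadjusted P. While 8248 of the 16687 tested genes lay within 0.15 of 0, 5 of the transport kinesins did. Their median log2 fold change was −0.07, close to the −0.08 of all tested genes. With median-of-ratios scaling it was 0.011. The mitotic median exceeded it by 0.05, and this difference was between 0.033 and 0.10 with 1 library left out and 0.018 among genes with a mean of at least 5 TPM.

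**Figure D3:**
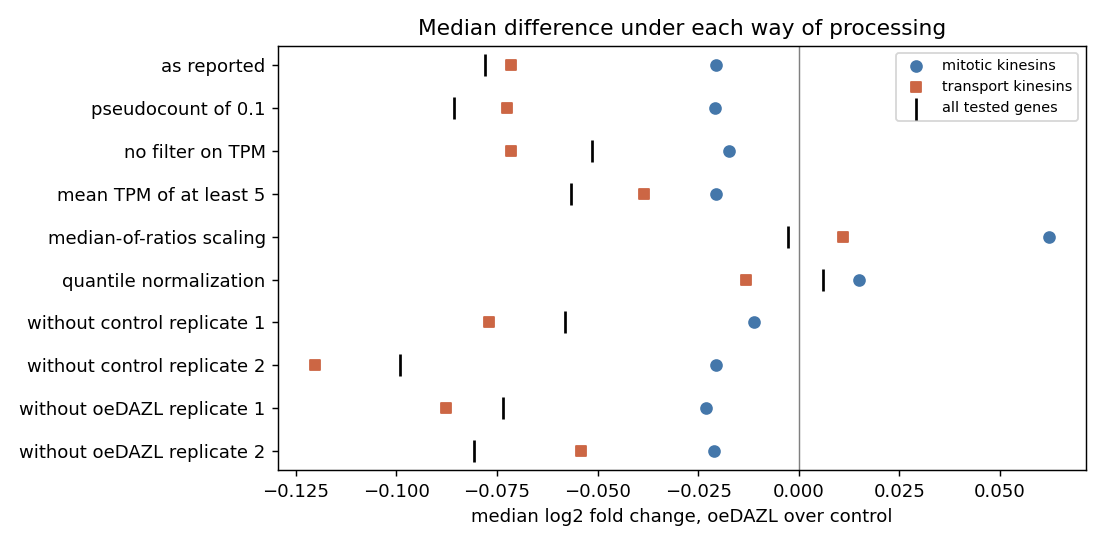
Median log2 fold change of mitotic kinesins, transport kinesins and all tested genes as deposited and under other ways of processing. The mitotic median lies to the right of the transport median in each, and median-of-ratios scaling moved it from −0.02 to 0.062.

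KIF5C (chromosome 2, hg38, 148875227 to 149026759), a heavy chain of conventional kinesin best known from neurons, had the smallest p of the family, with 10.97 and 12.01 TPM in control and 17.9 and 18.4 TPM in oeDAZL. Both oeDAZL values lay above both control values, as for 16.0% of all genes. The gap between groups exceeded that between replicates, as for 8 of the 15 transport kinesins. Means were 11.5 ± 0.735 TPM (SD, n = 2) in control and 18.2 ± 0.411 TPM (SD, n = 2) in oeDAZL, a ratio of 1.58. The log2 fold change was 0.62 (standard error 0.10, 95% interval 0.37 to 0.86, adjusted p = 0.0896 in limma). It stayed between 0.56 and 0.72 and past the unadjusted P under each alternative. KIF5C-AS1, an antisense gene, was listed at 0 in every library.

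The other heavy chains did not follow. KIF5B (chromosome 10, hg38, 32009015 to 32056425) had a log2 fold change of 0.05 (95% interval −0.11 to 0.21), and KIF5A, which is neuronal, had 2.01 and 1.61 TPM in control and 1.37 and 1.64 TPM in oeDAZL. The share of KIF5C in the summed TPM of the 3 heavy chains was 9.57% and 9.67% in control and 13.8% and 14.3% in oeDAZL. KIF5B supplied 88.7% and 89.03% in control and 85.2% and 84.4% in oeDAZL, and so remained the main heavy chain in every library.

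Of the 4 light chains, which link the heavy chains to cargo, 2 were lower on the unadjusted P, beside 15.2% of all genes. KLC3 had 6.59 and 6.21 TPM in control and 3.96 and 2.82 TPM in oeDAZL, with a log2 fold change of −0.77 (adjusted p = 0.119 in limma). KLC4 had 40.8 and 37.9 TPM in control and 32.8 and 34.4 TPM in oeDAZL, with a log2 fold change of −0.22 (adjusted p = 0.199 in limma). These are the 2 that passed the unadjusted P, and neither passed after adjustment. KLC1, the most abundant light chain, had 153 and 158 TPM in control and 144 and 141 TPM in oeDAZL, and KLC2 had 45.3 and 42.6 TPM in control and 35.5 and 41.2 TPM in oeDAZL. Neither KLC1 nor KLC2 passed, and both oeDAZL values lay below both control values for all 4 light chains, as for 38.4% of all genes. The ratio of summed light chain to summed heavy chain TPM was 2.15 and 1.97 in control and 1.67 and 1.70 in oeDAZL, without overlap.

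Adaptors of these motors were measured too. MAPK8IP3, a scaffold that joins JNK signalling to conventional kinesin, had 54.4 and 55.6 TPM in control and 38.7 and 41.2 TPM in oeDAZL, with a log2 fold change of −0.45 (adjusted p = 0.0896 in limma). Its relative MAPK8IP1 had 10.2 and 9.97 TPM in control and 5.76 and 8.01 TPM in oeDAZL, with a log2 fold change of −0.51. Both scaffolds were lower on the unadjusted P, with both oeDAZL values below both control values, as for 38.4% of all genes. In all, 4 of 20 listed partners and unmatched motors (20%) were lower on the unadjusted P, beside 15.2% of all genes. The 20 had a median log2 fold change of −0.05, beside −0.08 for all tested genes. STARD9, a motor outside the naming rule, lay between 2.90 and 3.30 TPM.

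KIF16B (chromosome 20, hg38, 16272104 to 16573448), an endosomal motor with a lipid-binding PX domain, had 17.4 and 19.3 TPM in control and 25.4 and 23.1 TPM in oeDAZL. The oeDAZL values lay above the control values, with a log2 fold change of 0.38 (standard error 0.10, adjusted p = 0.133 in limma). It was 0.32 without oeDAZL replicate 1, where it no longer passed the unadjusted P. Other kinesin-3 motors did not pass. KIF1A, a carrier of synaptic vesicle precursors, had 21.6 and 28.5 TPM in control and 31.2 and 27.2 TPM in oeDAZL with overlap, and passed the unadjusted P only without control replicate 2 and in the crossed pairing of replicates. KIF1B, KIF1C, KIF13A and KIF13B had log2 fold changes of −0.07, −0.04, −0.17 and −0.18.

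Kinesin-2 motors work in cilia and in the cytoplasm. KIF3C (chromosome 2, hg38, 25926598 to 25982749) had 23.97 and 24.1 TPM in control and 19.6 and 20.4 TPM in oeDAZL, with a log2 fold change of −0.25 (standard error 0.08, adjusted p = 0.184 in limma) and no overlap. It no longer passed the unadjusted P without oeDAZL replicate 1 (−0.23) or 2 (−0.28), or with median-of-ratios scaling (−0.17) or quantile normalization (−0.17). KIF3A and KIF3B, which pair with each other, had log2 fold changes of −0.03 and 0.04. KIFAP3, their accessory subunit, had 80.4 and 67.6 TPM in control and 63.8 TPM in both oeDAZL libraries, adjusted p = 0.275 in limma. KIF17, the homodimeric member, had a log2 fold change of −0.24.

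KIFC2, a minus-end-type kinesin known from neurons, had 55.5 and 47.5 TPM in control and 38.3 and 43.98 TPM in oeDAZL. The groups did not overlap, with a log2 fold change of −0.32 (adjusted p = 0.189 in limma). The unadjusted P was missed without control replicate 1 (−0.21), without oeDAZL replicate 1 (−0.22), with median-of-ratios scaling (−0.23) and with no TPM filter. FOXH1 overlaps KIFC2 on the other strand at 1.37 to 4.38 TPM, and whether counting used strand is not given in the sources used here. KIFC3, a relative at cell junctions, had a log2 fold change of −0.18 (adjusted p = 0.273 in limma).

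**Figure D4:**
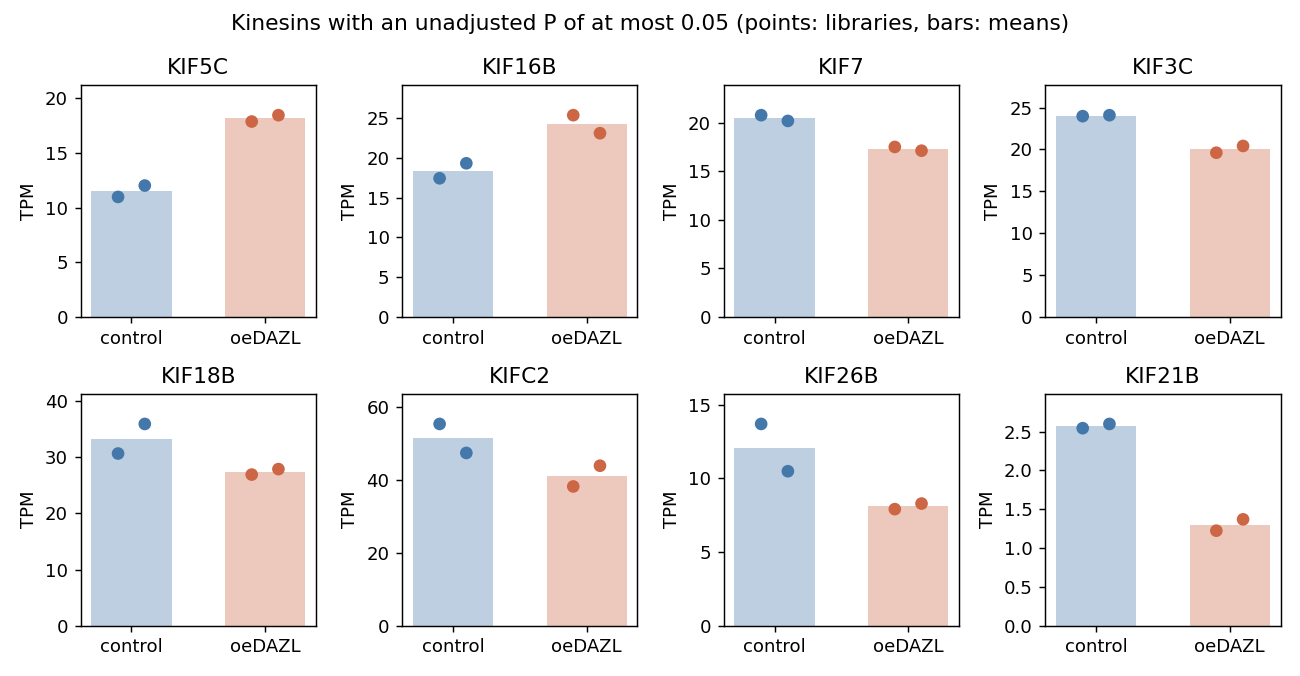
TPM of the 8 kinesins with an unadjusted P of at most 0.05, with a point per library and a bar at each group mean, on axes from 0. In every panel the oeDAZL pair lies apart from the control pair, above it for KIF5C and KIF16B and below it for the other 6. The 8 were picked by P from these same values, so the separation is not a further result.

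In the last set, 3 of 10 tested members were lower and 0 were higher on the unadjusted P, with a median log2 fold change of −0.14, where 15.2% and 5.02% of all genes passed and their median was −0.08. The 3 lower members became 2 with median-of-ratios scaling (KIF21B and KIF26B) and 1 with quantile normalization (KIF26B), where 9.16% and 9.07% of all genes were lower. KIF7, KIF21B and KIF26B were each lost with some library left out. KIF26B (chromosome 1, hg38, 245154985 to 245709432), an atypical kinesin that takes part in kidney mesenchyme development, had 13.7 and 10.5 TPM in control and 7.91 and 8.29 TPM in oeDAZL. The groups did not overlap, and control replicate 1 was the highest, with a log2 fold change of −0.51 (standard error 0.15, adjusted p = 0.159 in limma). It was −0.34 without control replicate 1 and −0.48 without oeDAZL replicate 1, where it no longer passed the unadjusted P. Of 12 mesenchyme markers, 7 were lower (58.3%) and 0 higher on the unadjusted P, beside 15.2% and 5.02% of all genes, and they summed to 4263 and 4499.6 TPM in control and 3704 and 3663 TPM in oeDAZL. COL3A1, a fibrillar collagen, fell by 1.25 on the log2 scale (adjusted p = 0.0344 in limma), whereas VIM, the most abundant marker, had 1188 and 1460.0 TPM in control and 1539 and 1469 TPM in oeDAZL. The part of mesenchymal cells in the KIF26B value was not tested, and in bulk RNA fewer cells of a type and less RNA per cell cannot be told apart.

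KIF21B (chromosome 1, hg38, 200969390 to 201023714), which limits microtubule growth in neurons and immune cells, had 2.54 and 2.60 TPM in control and 1.22 and 1.37 TPM in oeDAZL. Both oeDAZL values lay under both control values at a ratio of 0.504, with a log2 fold change of −0.64 (standard error 0.20, adjusted p = 0.176 in limma), or −0.94 with a pseudocount of 0.1. The unadjusted P was missed without control replicate 2 (−0.63), without oeDAZL replicate 1 (−0.59) or 2 (−0.68), and with quantile normalization (−0.46). KIF21A, its relative, had a log2 fold change of 0.07.

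Neuronal markers were measured beside KIF5C, KIF1A and KIF21B, which neurons also use. Of 12, 8 were tested, of which 2 were lower (25%) and 0 higher on the unadjusted P, beside 15.2% and 5.02% of all genes. The list summed to 79.00 and 92.6 TPM in control and 77.7 and 73.97 TPM in oeDAZL. STMN2, a tubulin-binding protein, had 24.6 and 20.6 TPM in control and 13.1 and 14.03 TPM in oeDAZL, and GAP43, a growth cone protein, had 6.02 and 5.18 TPM in control and 2.12 and 2.68 TPM in oeDAZL. INA, a neurofilament and the most abundant marker, overlapped between the groups, and ELAVL4, a defining marker, was at 0 in 3 libraries and 0.0141 TPM in the last. STMN2 and GAP43 were the 2 lower markers, whereas SNAP25, NEFL and INA had log2 fold changes of 0.38, 0.31 and 0.22 that did not pass. In all, 3 of the 8 lay above 0 and 5 below, and the part of neuronal cells in these values was not tested.

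KIF7 (chromosome 15, hg38, 89608789 to 89663086), the regulator of GLI proteins at the tip of the primary cilium, had 20.8 and 20.2 TPM in control and 17.5 and 17.1 TPM in oeDAZL, with a log2 fold change of −0.23 (adjusted p = 0.219 in limma). The groups did not overlap. The unadjusted P was missed without control replicate 1 (−0.21), without oeDAZL replicate 1 (−0.25) or 2 (−0.215), after quantile (−0.14) or median-of-ratios (−0.15) scaling, and with the replicate block, in which the log2 fold change is the same. TICRR overlaps KIF7 on the other strand at 15.9 to 20.3 TPM, so reads may be shared.

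KIF2A, a depolymerase of spindle poles and neurites, had 56.7 and 71.05 TPM in control and 71.2 and 65.2 TPM in oeDAZL and the highest level of this set, with overlap. Its relatives KIF2B and KIF2C were placed as mitotic, and placing KIF2A there would change the mitotic sum, median, range and CHR share. KIF26A, an atypical kinesin, had a log2 fold change of −0.07. KIF9 and KIF27, known from motile cilia, had −0.14 and −0.02, KIF24, which restrains ciliation, had −0.13, and KIF12 had −0.37. None of these passed the test. Of 12 motile cilia markers, 5 were tested. On the unadjusted P 0 were higher and 0 lower, beside 5.02% and 15.2% of all genes. Of the 12, DNAI2, an axonemal dynein chain, was listed at 0 throughout. CCDC40, the most abundant of them, had 8.87 and 6.74 TPM in control and 5.39 and 6.14 TPM in oeDAZL.

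Tracks and the opposing motor were compared last. Of 17 tested subunits of dynein and dynactin, 0 were higher and 0 lower on the unadjusted P, with log2 fold changes from −0.17 to 0.25. DYNLL1 and DCTN2 were the most abundant, with means of 400.1 and 188 TPM. Of 12 tubulins, 4 were higher (33.3%) and 3 were lower (25%) on the unadjusted P, beside 5.02% and 15.2% of all genes, and 0 passed after adjustment. TUBA1B, the most abundant, had 1920.3 and 1931 TPM in control and 1712 and 1717 TPM in oeDAZL, without overlap. TUBA1A and TUBB4A were also lower, by log2 fold changes of −0.18 and −0.66. The higher genes TUBA1C, TUBB2A, TUBB2B and TUBA4A had 0.15, 0.20, 0.12 and 0.76, and TUBA4A lay at only 1.13 to 3.94 TPM. Tubulin genes are closely alike, so the division of reads among them is uncertain.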

How the data were processed

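The authors deposited 1 table of TPM per gene for 2 control and 2 oeDAZL libraries, with replicates not pooled. Per the paper and the submitters' processing notes, reads were trimmed with Trim Galore, mapped to hg38 with HISAT2 2.1.0, kept where unique and quantified with StringTie 2.1.4; the annotation release is not given in the sources used here. From the 65003 entries, 45 pseudoautosomal copies and 18 repeats were left out. The authors' TPM was transformed to log2(TPM + 1), and genes with a mean of at least 1 TPM entered lmFit and eBayes with a trend, from limma 3.58.1 (R 4.3.3), oeDAZL minus control, without covariates. The study tested read counts, which TPM does not replace, so its thresholds were applied to limma's values. With 2 libraries a group an exact permutation test cannot give a p under 0.333. Intervals are limma's 95% intervals, and depth is unknown.

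Coordinates come from GENCODE 44 on hg38, promoters from RefSeq. The script was tested on simulated data. Alternatives were a pseudocount of 0.1, no TPM filter, a mean of at least 5 TPM, median-of-ratios scaling, quantile normalization, a replicate block and each library left out. Every kinesin was to be named, and of the partner, dynein and tubulin lists the genes past the threshold and the 2 with the highest levels, with CENPE, STARD9 and the most abundant genes of the marker lists; KLC2, POU5F1, TFAP2C, SNAP25, NEFL, STMN2, GAP43, COL3A1, NANOS3, DDX4, ELAVL4 and DNAI2 were added after their values were seen. The members, lists and roles were chosen with earlier results of these data known. The miRNA libraries were not analysed here. A gene of the partner list is not reported here. The same-numbered libraries had deviations from their group means that correlated at −0.10 over genes, so the numbers were not taken as pairs.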

Additional observations from a re-analysis of the deposited data

How the results depend on the processing

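The counts of kinesins called at a 2-fold change were 0 higher and 0 lower under every alternative. On the unadjusted P, 2 kinesins were higher and 6 lower as deposited, beside 5.02% and 15.2% of all genes. With median-of-ratios scaling 2 were higher and 2 lower, beside 9.95% and 9.16% of all genes. After quantile normalization 3 were higher and 2 lower, beside 8.40% and 9.07%. Leaving out 1 library, the higher ones numbered 1 to 5 and the lower ones 0 to 4. The lone library of a group was then assumed to vary like the other group. The shares of all genes past the unadjusted P moved with the library left out as well. Like the kinesin counts, these shares were lowest without oeDAZL replicate 1, and they were highest without control replicate 2. The ranges therefore do not set kinesins apart from the tested genes at large. KIF5C stayed past the threshold in all 10 alternatives before the crossed pairing, and KIF16B in 9 of them, the exception being without oeDAZL replicate 1.

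The median log2 fold change of the mitotic kinesins, −0.02, was 0.062 with median-of-ratios scaling and 0.015 after quantile normalization, and lay between −0.023 and −0.011 with each library left out. That of the transport kinesins, −0.07, was −0.039 with a mean of at least 5 TPM, 0.011 with median-of-ratios scaling and −0.013 after quantile normalization, and ranged from −0.12 to −0.054 with each library left out. The mitotic minus transport difference, 0.05, was 0.018 with a mean of at least 5 TPM and 0.028 after quantile normalization, and ranged from 0.033 to 0.10 with each library left out. These scalings moved the median of all tested genes from −0.08 to −0.0026 and 0.0061. The cause was not tested.

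With the replicate number as a replicate block, 2 kinesins were higher and 5 lower, beside 4.0% and 12.6% of all genes. KIF7 was lost, and no other call changed. With the numbers crossed, an alternative chosen after seeing the data, 3 were higher and 6 lower, beside 6.35% and 17.7% of all genes. The share of all genes was not counted for the adjusted p, and 3 kinesins had one under 0.05 in limma. Without control replicate 2, 1 kinesin did, and 0 did as reported. Unknown depth limits the precision most for KIF21B, KIF17, KIF12 and KIF5A.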
